A study of Mus musculus with 8 samples.

Results

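Replication-dependent histone genes encode the linker histone H1 and the core histones H2A, H2B, H3 and H4. Members were all gene symbols of the deposited gene list that start with Hist1h, Hist2h, Hist3h or Hist4h, the older mouse names of these clusters, and this rule found 67 of 31053 gene rows. They comprise 6 H1, 18 H2A, 18 H2B, 12 H3 and 13 H4 genes. Members of a family with separate symbols can be near-identical in sequence, so a value for 1 symbol may hold reads of a copy. The names can be ambiguous too: the symbol Hist1h2ap matched both RefSeq symbols H2ac23 and H2ac24, and Hist1h2ao also matched H2ac23. Whether the counts of these genes hold reads of a copy was not tested.

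A nucleosome wraps DNA around an octamer of core histones, and H1 binds the linker DNA between nucleosomes. Cells need new histones when they copy their DNA, and most replication-dependent histone mRNA is made in S phase and degraded when replication ends. Unlike other mRNAs, the canonical transcripts end in a stem-loop bound by the stem-loop binding protein and carry no poly(A) tail, although some histone genes also make longer, polyadenylated transcripts. The libraries were made with a droplet kit that counts the 3′ ends of polyadenylated RNA, so the values count the histone transcripts that this kit captured. They do not measure the total of each histone mRNA, and how much of it was captured was not tested.

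The cells came from the colonic lamina propria, the connective tissue under the gut epithelium, and were enriched for CD4 T cells with a magnetic kit. The mice were C57BL/6, aged 10 to 12 weeks, and either wildtype or carrying a serine-to-alanine substitution in RORγt, a transcription factor of Th17 cells. The substitution is S182A in the series title and S203A in the sample titles, where the mutants are marked as knock-in. Dextran sulfate sodium, or DSS, is a polymer used to injure the epithelium of the colon, and it was given at 2% in the drinking water for 7 days, followed by plain water for 3 days, and untreated mice drank plain water until the same harvest on day 10.

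There were 4 groups of 2 libraries: wildtype without treatment, mutant without treatment, wildtype after DSS and mutant after DSS. In every series of 8 values that follows, libraries stand in this order of groups, with replicate 1 before replicate 2. Libraries held 34497509 to 46960005 UMIs (unique molecular identifiers, each standing for 1 captured molecule). Levels are in CPM, the UMIs of a gene or group of genes per 1000000 UMIs of the population in a library. Pairs of libraries shared at most 64 of their barcodes, and the 8 tables held 100673 barcodes. The labels name animals by number, do not say whether mice were pooled, and give no batch, so p-values measure the spread between these libraries.

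T cells were barcodes on the authors' cell list with at least 2 UMIs of 6 T cell receptor complex genes and more of these than of any other cell type's list. Non-T barcodes had none of these UMIs. In both, cycling cells had at least 2 UMIs of Mki67, Top2a and Birc5 together, genes that are high in G2 and M phase. This gave 2273 cycling T cells (163 to 480 per library), 16750 other T cells, 1638 cycling non-T barcodes and 26746 other non-T barcodes. Of the 10340 to 15370 barcodes per library that passed the quality filter, 4339 to 8962 fell in none of these populations and were left out. By the T cell genes alone, 4817 to 7620 barcodes per library met the rule for T cells. Those also on the authors' list, which are the T cells here, numbered 1778 to 3404. Non-T barcodes were not limited to that list. In cycling T cells the T cell list, which chose them, summed to 2729 to 3778 CPM. Of the other types' lists, plasma cell genes were highest at 199.6 to 479 CPM, followed by dendritic cell genes at 109 to 219.6 and macrophage or monocyte genes at 54.9 to 149, and the medians of the other lists were lower.

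In the GRCm38 annotation, 54 members lie on chromosome 13 between positions 21715763 and 23934851. Another 10 lie on chromosome 3 between 96219865 and 96270132, 2 on chromosome 11 and 1 on chromosome 6. The histone stem-loop was searched in the annotated GENCODE vM21 transcripts as GGNNCT, the loop TTNN and AGNNCC, with the 6 bases on each side all paired. It was found in 44 of the 67 members and in 0.237% of 21951 protein-coding genes. The forms found are printed because they are the sequence feature that sets these mRNAs apart, with the paired stem in capitals and the loop in lower case.
The form of 26 members of the H1, H2A, H2B and H3 families, among them Hist1h1c, Hist1h1e and Hist1h2ap: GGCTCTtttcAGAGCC
The form of 7 H4 members, among them Hist1h4d and Hist4h4: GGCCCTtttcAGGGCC
The form of 6 members of the H1, H2B and H3 families, among them Hist1h3c and Hist1h3e: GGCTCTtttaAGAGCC
The form of Hist2h4 and Hist1h4i: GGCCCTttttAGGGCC
The form of Hist1h4j and Hist1h4b: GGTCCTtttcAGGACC
The form of Hist2h2ac: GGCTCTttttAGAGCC
The form differed between families: the 11 H4 members with a match carried forms that were found in no member of another family. No match in an annotated transcript says only that these letters are not in it. Hist1h1b and Hist2h2bb, for instance, are annotated without any 3′ untranslated region.

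Promoter sequence was read from RefSeq (GRCm38.p6) as the 120 bases before each annotated start, for the 62 members that matched. Either strand was searched for TATAA (the core of a TATA box), CCAAT (the CCAAT box) and ATTTGCAT (the octamer known from H2B promoters). CCAAT occurred in 48 of the 62 members and in 21.3% of 32851 windows of the same length. TATAA occurred in 30 members and in 11.8% of windows, and ATTTGCAT in 7 members and in 0.792% of windows. These matches are descriptions and not measured binding. CCAAT was found in 6 of 6 H1, 18 of 18 H2A, 15 of 16 H2B and 7 of 10 H3 windows, but in 2 of 12 H4 windows. The octamer was found in 6 H2B windows and 1 H2A window, that of Hist3h2a. Below are 3 members that were much higher in cycling T cells and 2 that were not, with matched motifs in capitals.
Hist1h1b, chr13:21780626-21780745, minus strand: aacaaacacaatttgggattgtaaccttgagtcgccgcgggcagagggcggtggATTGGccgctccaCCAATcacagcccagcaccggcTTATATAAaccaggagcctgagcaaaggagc
Hist1h2ab, chr13:23750968-23751087, plus strand: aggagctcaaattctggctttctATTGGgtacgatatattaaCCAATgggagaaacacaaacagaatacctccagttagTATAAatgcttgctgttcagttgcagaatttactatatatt
Hist1h4d, chr13:23581448-23581567, plus strand: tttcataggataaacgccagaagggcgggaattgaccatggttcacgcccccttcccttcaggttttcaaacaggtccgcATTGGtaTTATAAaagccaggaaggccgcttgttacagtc
Hist3h2a, chr11:58954565-58954684, plus strand: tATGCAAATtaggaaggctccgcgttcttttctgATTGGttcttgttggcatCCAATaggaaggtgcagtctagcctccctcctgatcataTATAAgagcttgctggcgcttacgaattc
Hist4h4, chr6:136804432-136804551, minus strand: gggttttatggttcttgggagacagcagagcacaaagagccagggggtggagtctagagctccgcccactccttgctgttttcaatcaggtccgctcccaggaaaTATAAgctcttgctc
All of these windows hold TATAA, and the windows of Hist1h1b, Hist1h2ab and Hist3h2a hold CCAAT on both strands. Hist3h2a, which was not higher in cycling T cells, holds all 3 motifs.

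Histone mRNA was detected at this depth for most members. Of the 67, 61 had more than 10 UMIs over the 4 populations, 4 had 1 to 10 and 2 (Hist1h2aa and Hist1h2bq) had none. A count of 0 in these 188849720 UMIs allows up to 0.0159 CPM, counting error only. The 12 members with the highest mean level in cycling T cells held 80.3% of the member UMIs there.

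Cycling T cells held far more histone mRNA than other T cells. The summed level of the 67 members was 3837, 4381, 3828, 4912, 3315, 2760, 3316 and 2862 CPM in cycling T cells. Other T cells of the same libraries had 599, 665, 574, 613, 458, 356, 414 and 377. The lowest cycling library thus lay above the highest library of other T cells. Means were 3651 ± 740 and 507 ± 119 CPM (SD, n = 8). Cycling T cells were also deeper, with library medians of 4876 to 8251 UMIs per cell against 2067 to 2869. With each cell thinned to 1000 UMIs, 72.0% ± 4.57 (SD, n = 8) of cycling T cells and 35.3% ± 6.58 of other T cells had a member UMI. Before thinning, the shares were 91.6% and 61.7%, and the thinning left out 2 and 318 shallower cells.

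**Figure D1:**
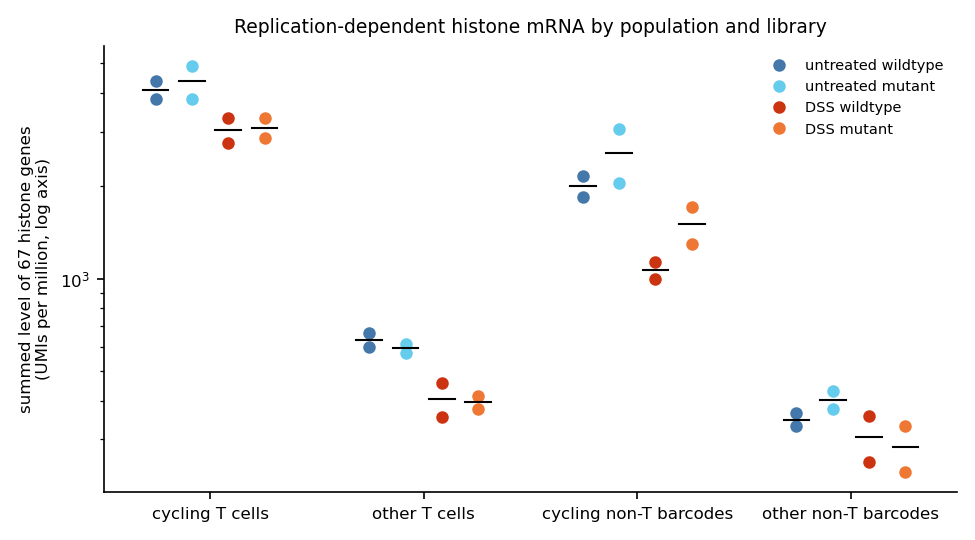
Summed level of the 67 histone genes (CPM, log axis) in the 4 populations, with 1 point per library, colours for the 4 groups and black bars for the group means. Cycling T cells lie between 2760 and 4912, other T cells between 356 and 665, cycling non-T barcodes between 997 and 3072 and other non-T barcodes between 235 and 431.

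By family, H1 genes gave the largest part of the captured mRNA. In cycling T cells the families summed to 1634 ± 264 CPM for H1, 961 ± 428 for H2A, 330 ± 62.6 for H2B, 300.5 ± 39.7 for H3 and 426 ± 63.6 for H4 (SD, n = 8). Other T cells had 260 ± 62.8, 75.1 ± 23.3, 64.3 ± 15.4, 30.3 ± 6.71 and 77.0 ± 17.3. These are levels of counted 3′ ends, and they say nothing of the amounts of histone protein. H1 made up 45.2% of the member UMIs in cycling T cells and 51.3% in other T cells.

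The test of cycling against other T cells was edgeR's quasi-likelihood test on UMIs summed per library and class, with the library as a term and Benjamini-Hochberg adjustment over all genes tested. Of 40 members that passed the filter on low counts, 37 were higher in cycling T cells and none was lower, while 26% of all genes tested were called higher and 27.8% lower. The other 27 members were too low to test. The filter could pass a member through its level in cycling cells alone, so the 32 members that pass in other T cells by themselves were counted too, and 29 of these were higher (25.4% of all genes that pass likewise). For 36 of the 40, every cycling library lay above every library of other T cells, against 9.34% of all genes tested, and the exceptions were Hist3h2ba and the members not called. All exceptions are among the 32, so the 36 include the 8 members that passed only through cycling cells. The filter favoured separation of those 8, and the share of all genes was not recounted for this measure. In these sums, more cells in S phase and more histone RNA per such cell cannot be told apart.

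Among the linker histones, Hist1h1b (H1.5) was the member with the highest level in cycling T cells, with a lowest, median and highest library of 556, 811 and 939 CPM. The corresponding values of other T cells were 11.9, 21.1 and 30.2. The groups did not overlap, and the log2 difference was 5.28 ± 0.09 (SE). Hist1h1b was also detected in few cells outside the cycling class: after thinning, 36.5% ± 5.42 (SD, n = 8) of cycling T cells and 1.54% of other T cells had a UMI at the same depth. Non-T barcodes outside the cycling class had 0.667% in all, from 0.221% in fibroblast-like to 1.83% in B cell-like barcodes among the types measured in all 8 libraries, so the share in other T cells lies within the range of these types. The unthinned shares in cycling and other T cells were 58.1% and 3.91%.

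Hist1h1e (H1.4) and Hist1h1c (H1.2) differed from it in that they were abundant in T cells outside the cycling class too. Hist1h1e ran from 326 over 450 to 511 CPM (lowest, median, highest) in cycling T cells and from 69.3 over 92.4 to 117 in other T cells. Hist1h1c ran from 175 over 264 to 345 in cycling T cells and from 77.0 over 136 to 170 in other T cells. The cycling and other libraries did not overlap for either gene, with log2 differences of 2.24 ± 0.06 and 1.03 ± 0.05 (SE). The 2 genes together held 43.7% of the member UMIs of other T cells. Hist1h1d (H1.3) had 84.9, 91.0 and 123 against 10.3, 15.6 and 18.5 CPM. Its log2 difference of 2.70 ± 0.08 lay between those of Hist1h1b and Hist1h1e.

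Of the H2A genes, Hist1h2ap had the highest mean in cycling T cells and a wide spread between libraries. Its level in cycling T cells was 118, 650.5, 389, 856, 228, 64.0, 323 and 218 CPM, and in other T cells 6.42, 30.9, 17.7, 28.4, 6.73, 2.64, 10.9 and 9.54. Within each library the cycling value was higher, and the log2 difference was 4.62 ± 0.08 (SE). Hist1h2ae had a lowest, median and highest level of 97.1, 189 and 430.2 CPM in cycling T cells and 4.72, 9.78 and 16.3 in other T cells. Hist1h2ab had 48.2, 74.8 and 151.5 against 0.566, 1.18 and 2.41. Their log2 differences were 4.47 ± 0.08 and 5.81 ± 0.14, and for both the libraries of the 2 classes did not overlap. Hist2h2ac, from the chromosome 3 cluster, had 118, 134 and 202.9 CPM in cycling T cells and 12.5, 19.6 and 25.9 in other T cells, without overlap and with a smaller log2 difference (2.94 ± 0.09).

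The H3 and H4 genes held the member with the largest difference and 2 of those with none detected. Hist1h3c had a lowest, median and highest level of 94.1, 120 and 134 CPM in cycling T cells and 0.591, 1.25 and 1.497 in other T cells. The ratio within a library lay between 71.9 and 210, and the log2 difference was 6.58 ± 0.10 (SE). Only 58 UMIs stand behind the level in other T cells. Hist1h3c passed the filter only through its level in cycling cells, so its difference is a description. Among the 32 members that pass in other T cells by themselves, the largest difference was that of Hist1h2ab (5.81). Hist1h3e had 64.3, 77.1 and 119 CPM in cycling T cells against 9.63, 10.8 and 21.0 (log2 difference 2.62 ± 0.09). The H4 gene Hist1h4d had 188, 272 and 361 against 21.7, 36.2 and 52.0 (2.86 ± 0.06). The libraries of the 2 classes did not overlap for either gene. Among H2B genes, Hist1h2bj had 48.2, 66.1 and 89.9 against 2.27, 3.05 and 5.44, again without overlap (4.40 ± 0.10), whereas Hist1h2be, Hist1h2bc and Hist3h2ba rose by log2 differences of 1.38, 1.30 and 0.84.

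The 3 tested members that were not called were Hist2h4, Hist4h4 and Hist3h2a. Hist3h2a had 7.20, 9.86 and 25.2 CPM (lowest, median, highest) in cycling T cells and 11.3, 12.0 and 17.0 in other T cells. Hist4h4 had 2.83, 3.97 and 6.17 against 3.18, 4.75 and 7.26, and Hist2h4 had 1.38, 3.62 and 7.07 against 2.04, 3.96 and 7.27. The libraries of cycling and other T cells overlapped for all of them. Their log2 differences were -0.26 (adjusted p = 0.164), -0.23 (0.347) and -0.07 (0.843) in edgeR's quasi-likelihood test. Each lies outside the chromosome 13 cluster: Hist3h2a on chromosome 11, Hist4h4 on chromosome 6 and Hist2h4 on chromosome 3. The other 4 tested members outside that cluster were higher in cycling T cells, namely Hist2h2ac (2.94), Hist2h2aa1 (2.68) and Hist2h2bb (2.65) on chromosome 3 and Hist3h2ba (0.84) on chromosome 11.

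The size of the difference went with the length of the annotated 3′ untranslated region. Among the 32 members that pass the filter in other T cells by themselves, the 13 with at most 120 annotated bases had a median log2 difference of 3.19 (2.13 to 5.81) and the 19 with more had 1.78 (-0.26 to 4.47). Of the 8 members that passed only through their level in cycling cells, 7 are short, so the medians over all tested members lie further apart. Over all 40, the 20 members with at most 120 bases had a median of 4.04 (2.13 to 6.58) and summed to 103 CPM in other T cells and 1959 in cycling T cells. The 20 members with more than 120 bases had a median of 1.93 (-0.26 to 4.47) and went from 396 to 1647. All tested genes together had a median of -0.04. Members with long annotated ends thus carried most of the signal outside the cycling class. Hist1h1e is annotated with 1209 bases, Hist1h1c with 880, Hist4h4 with 2515 and Hist3h2a with 1700, against 114 for Hist1h3c and 57 for Hist1h2ap. Several long members had differences above the median of their set: Hist1h2ae with 199 bases (4.47), Hist1h4d with 822 (2.86), Hist1h3f with 417 (2.84), Hist1h2bh with 1258 (2.73) and Hist1h1d with 4931 (2.70) were the 5 with the largest. Spearman's rho between length and log2 difference was -0.68 across the 32 members and -0.67 across the 40, which share the same libraries. The limit of 120 bases was chosen here, and members annotated with no 3′ untranslated region count among the short ones.

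**Figure D2:**
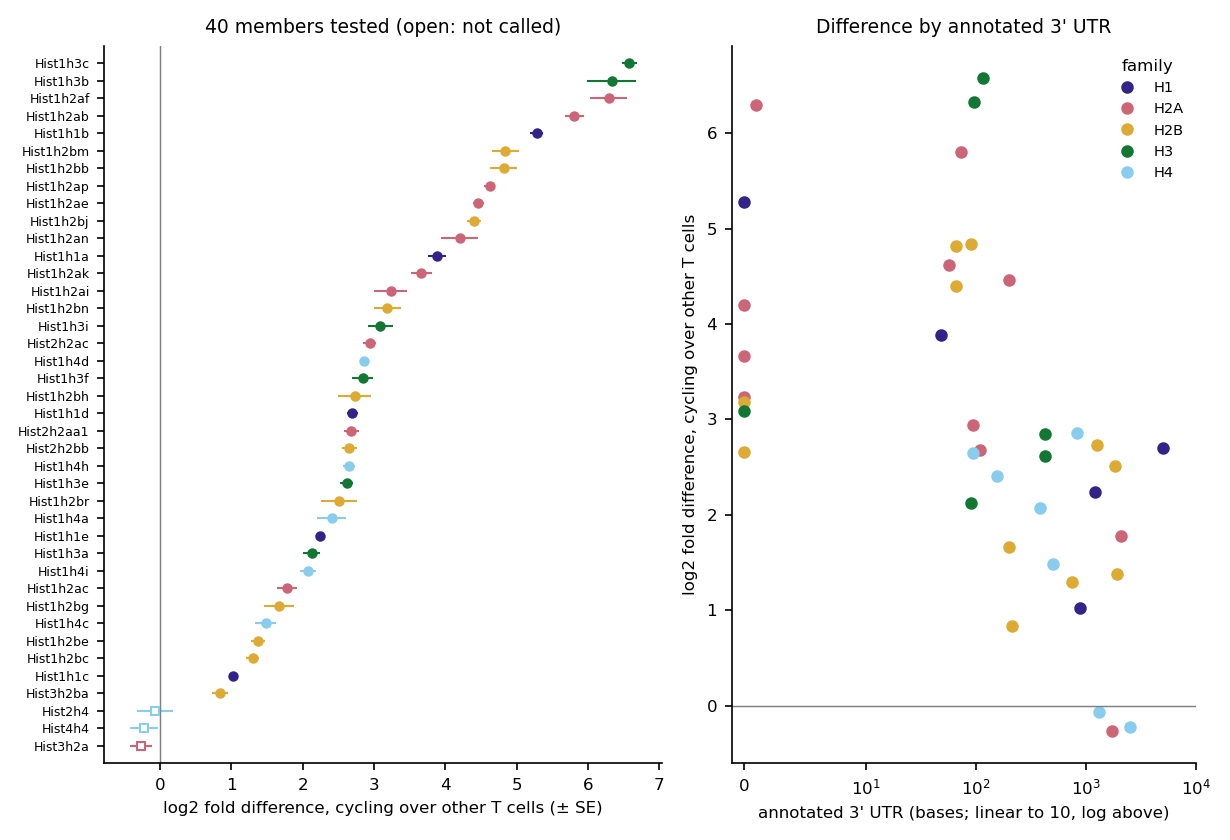
Left, log2 fold difference between cycling and other T cells for the 40 tested members with its standard error, coloured by family, with open squares for the members not called. Right, the same differences against annotated 3′ untranslated region length (bases), which have a median of 4.04 at 120 bases or fewer and 1.93 above, or 3.19 and 1.78 among the 32 members that pass the filter in other T cells by themselves.

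The level of histone mRNA rose with the number of Mki67, Top2a and Birc5 UMIs well beyond the limit that defines cycling cells. T cells with 0 such UMIs had a summed level of 495 ± 116 CPM (SD, n = 8), those with 1 had 557 ± 138 and those with 2 had 817 ± 202.8. The level was 1723 ± 491 at 3 to 4 UMIs, 3909 ± 1216 at 5 to 9 and 5402 ± 1679 at 10 or more. Cells at the limit, 597 with 2 UMIs and 2410 with 1, were thus closer to T cells without a UMI than to the cells with most of them. Non-T barcodes had 336, 329, 380, 568, 1250 and 3265 in the same bins.

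T cells were also classed by 8 S phase genes (Mcm3, Mcm5, Mcm10, Tyms, Rrm2, Cdc45, Clspn and Uhrf1), at a limit of 2 UMIs. The question was whether cells with S phase transcripts, but under the limit for the G2 and M genes, hold histone mRNA. The 610 cells past the S phase limit only had a summed level of 559 ± 157 CPM (SD, n = 8), close to the 503 ± 118 of the 16140 cells past neither limit. The 892 cells past only the limit on Mki67, Top2a and Birc5 had 1707 ± 595, and the 1381 cells past both had 4483 ± 1203. The classes differed in depth. Library medians were 4324 to 6332.5 UMIs per cell past the S phase limit only and 2044.5 to 2830 past neither. Those of the other classes were 3502.5 to 4834 and, past both limits, 5597 to 9999. A limit of 2 UMIs is passed more easily by deep cells, and how many of the 610 were in S phase was not tested.

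**Figure D3:**
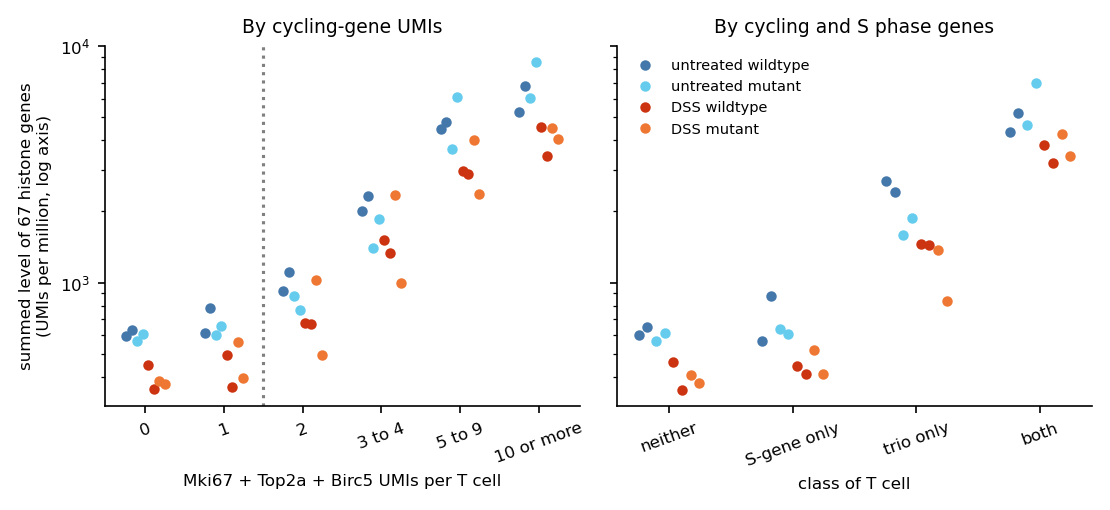
Summed level of the 67 histone genes in T cells (CPM, log axis), with 1 point per library coloured by group, by the number of Mki67, Top2a and Birc5 UMIs (left, dotted line at the limit for cycling cells) and by class (right). Means run from 495 to 5402 across the bins, and are 559 in cells past only the S phase limit and 4483 in cells past both limits.

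Against cells past neither limit, 3 of 31 tested members were higher in the cells past only the S phase limit (14.9% of all genes tested were higher), by the same test with the library as a term. The filter took all classes together, so a member could be tested through the cycling classes alone. Hist1h3c does not pass in other T cells by themselves. No recount was made over members that pass in the classes compared, so this count and the differences below are descriptions. Hist1h3c had 8.26, 5.56, 0, 4.43, 3.29, 3.06, 13.7 and 5.56 CPM there, from 19 UMIs in all, against a mean of 0.825 in cells past neither. Hist1h2bj had 8.26, 5.56, 8.18, 4.43, 8.23, 18.3, 2.75 and 5.56, from 26 UMIs, against 2.92. Hist1h1b had 30.3, 50.1, 87.2, 6.65, 28.0, 36.7, 52.2 and 22.2, from 128 UMIs, against 19.3. Single libraries did not show the rise: Hist1h3c had no UMI in untreated mutant replicate 1, Hist1h2bj had 2.75 against 3.18 in cells past neither limit of DSS-treated mutant replicate 1, and Hist1h1b had 6.65 against 21.4 in untreated mutant replicate 2. Hist1h1b in untreated wildtype replicate 1 (30.3 against 30.1) and Hist1h2bj in untreated wildtype replicate 2 (5.56 against 5.43) were nearly equal. The log2 differences were 2.57 ± 0.51 (edgeR adjusted p = 1.29e-04), 1.32 ± 0.36 (0.00459) and 0.98 ± 0.28 (0.00673). The call of Hist1h1b was lost without the library term (adjusted p = 0.0667). The count was 5 with no filter on low counts and 8 with T cells on the list or not. With thinned cells it was 6, which is every member that could be tested there. These counts pool both directions and stand without the share of all genes called in the same fits.

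Compared with the cells past only the limit on Mki67, Top2a and Birc5, 23 of the 31 members were lower in the cells past only the S phase limit, against 3.55% of all genes tested, and none was higher (5%). The filter on low counts took all classes together, so a member could pass through the cells past the limit on Mki67, Top2a and Birc5 alone. No recount was made over members that pass in the cells past only the S phase limit, so the count of 23 is a description. Hist1h2ab (-3.79 ± 0.48, log2 difference with SE), Hist1h1b (-2.88 ± 0.22), Hist1h3c (-2.76 ± 0.32) and Hist1h2ap (-2.65 ± 0.22) were among the 23. Hist1h2ab and Hist1h3c had only 68 and 58 UMIs in all T cells outside the cycling class, of which the cells past only the S phase limit are a part. With cells thinned to 1000 UMIs, 6 members could be tested and 3 were lower, and the share of all genes there is not given. The S phase list itself went the other way: 17 of its 24 tested genes were higher in the cells past only the S phase limit, but 8 of its genes chose those cells, so their values are a description.

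Genes that work with the histones were mostly higher in cycling T cells as well. Over all genes tested, 26% were higher and 27.8% lower. All 25 S phase genes tested were higher. Only 23 of them pass the filter in other T cells by themselves, and the counts of these lists were not redone over genes that do. The 3 S phase genes with the highest level, Dut (dUTP hydrolysis), Mcm6 and Mcm3 (subunits of the replicative helicase), had log2 differences of 2.12, 0.93 and 2.56. Of 12 histone chaperone genes, 10 were higher and none lower, led in level by Nasp (0.67), Ssrp1 (1.22) and Supt16 (0.86), the last 2 being subunits of FACT. Of 10 genes for histone mRNA processing and transcription, 9 were higher, among them Slbp, the stem-loop binding protein (0.83), Casp8ap2 (0.40) and Eri1 (0.47), while Lsm10, a part of the U7 particle, was lower (-0.36). Of 9 replication-independent histone genes, 7 were higher. Their most abundant member, H3f3b (H3.3), differed by 0.08 (edgeR adjusted p = 0.0521), H2afz (H2A.Z) by 0.69 and H3f3a (H3.3) by 0.26. The median over each list was 2.35 for S phase genes, 0.85 for chaperones, 0.44 for processing and 0.69 for replication-independent histones, beside 2.71 for the tested members and -0.04 for all genes tested. The 2.71 is over all 40 tested members, of which 8 passed the filter only through their level in cycling cells. No single median over the other 32 is given, so the members are not ranked against the lists.

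Outside T cells, the same split again gave more histone mRNA in the cycling class, at a lower level. The classes differed in cell type: fibroblast-like barcodes were 79 of 1638 cycling and 6909 of 26746 other non-T barcodes. The part of this mix in the differences between these classes was not tested. The summed level was 1840, 2149, 2041, 3072, 997, 1128, 1702 and 1300 CPM in cycling non-T barcodes and 332, 365, 377, 431, 356, 254, 331 and 235 in the others. Every cycling value lay above every other value. Of 31 tested members, 28 were higher in cycling non-T barcodes (25.2% of all genes tested were higher), and 27 of the 30 tested in both populations were higher in both, against 19.3% of all genes tested in both. Of the 26 that pass the filter in other non-T barcodes by themselves, 23 were higher (25% of all genes that pass likewise). Of the 25 that pass in the other cells of both populations, 22 were higher in both (18.7% of all genes). With each cell thinned to 1000 UMIs, 12 members could be tested and 9 were higher. With no filter on low counts, the calls numbered 51 of 65. The share of all genes called in those fits is not given, so these counts show only how far the count moved. Hist1h1b had a median of 340 CPM in cycling and 5.10 in other non-T barcodes.

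Hist3h2a was the 1 member called lower in cycling non-T barcodes, where 30% of all genes tested were lower. Its level there was 13.7, 12.6, 15.9, 16.5, 18.2, 10.4, 14.4 and 12.5 CPM, against 19.2, 16.7, 26.5, 21.7, 18.2, 13.3, 17.2 and 15.1 in other non-T barcodes. It was lower in 7 libraries and at 18.2 in both classes of DSS-treated wildtype replicate 1, and the 2 classes overlapped. The log2 difference was -0.35 ± 0.10 (edgeR adjusted p = 0.00892), and the adjusted p reached 0.738 among the alternatives tried. Hist1h2bc (-0.07, adjusted p = 0.706) and Hist4h4 (-0.69, adjusted p = 0.131) were not called.

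Outside the cycling class, T cells and non-T barcodes differed in the levels of many histone genes. Of 33 tested members, 26 were lower in other non-T barcodes than in other T cells (39.2% of all genes tested were lower), with the largest log2 differences for Hist1h2ak (-2.52), Hist2h2bb (-2.29) and Hist3h2ba (-2.29). Another 6 were higher, against 44.3% of all genes tested. In this fit 10652 of 12750 genes were called in either direction, so a high number of calls is not particular to the members. With cells thinned to 1000 UMIs, 20 of 22 testable members were called in either direction, and the share of all genes there is not given. The 6 called higher were Hist1h2bc, Hist2h3c2, Hist1h3d, Hist2h3c1, Hist2h2be and Hist3h2a. Of these, Hist2h3c2, Hist1h3d, Hist2h3c1 and Hist2h2be do not pass the filter in other T cells by themselves. They were tested only through their level in non-T barcodes, so their calls are descriptions. Members called lower could likewise pass through other T cells alone, and neither count was redone over members that pass in both. H2B genes held 32.5% of the member UMIs in other non-T barcodes and 12.7% in other T cells, and H1 genes 36.7% and 51.3%.

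Hist1h2bc had the largest of these differences. Its level in other non-T barcodes was 88.8, 98.2, 105, 85.9, 112, 80.0, 96.6 and 72.3 CPM, against 17.3, 13.6, 17.9, 16.4, 21.0, 12.5, 16.3 and 13.9 in other T cells. All non-T values lay above all T cell values, with a log2 difference of 2.53 ± 0.07 (SE; edgeR adjusted p = 1.67e-11). Together with Hist1h1c it held 47.6% of the member UMIs of other non-T barcodes.

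Hist3h2a was among the more abundant members in both populations, with medians of 17.7 and 12.0 CPM, and the other 4 were low. Hist3h2a had 19.2, 16.7, 26.5, 21.7, 18.2, 13.3, 17.2 and 15.1 CPM in other non-T barcodes, against 15.4, 14.6, 17.0, 11.8, 12.1, 11.9, 11.3 and 11.7 in other T cells. It was higher outside T cells within every library, although the 2 sets of libraries overlapped (log2 difference 0.48, adjusted p = 4.15e-04 in edgeR). Hist2h3c2, Hist1h3d, Hist2h3c1 and Hist2h2be, of which 3 lie in the chromosome 3 cluster, rested on 29, 32, 56 and 49 UMIs in other T cells.
Hist2h3c1 had 2.89, 2.27, 3.37, 1.51, 1.48, 2.38, 2.31 and 2.97 CPM in other non-T barcodes, and Hist2h3c2 had 2.76, 1.70, 3.52, 1.57, 2.13, 0.792, 2.23 and 1.19. Hist1h3d had 1.48, 1.45, 2.56, 1.96, 2.63, 1.43, 1.07 and 1.19, and Hist2h2be had 2.38, 2.33, 3.62, 2.03, 0.984, 1.43, 1.48 and 0.765. The highest library of other T cells reached 2.12 for Hist2h3c1, 1.11 for Hist2h3c2, 1.38 for Hist1h3d and 1.497 for Hist2h2be, so the libraries overlapped for all 4. The log2 differences were 1.19 (edgeR adjusted p = 1.41e-04), 1.72 (5.67e-04), 1.37 (0.0021) and 0.85 (0.0165) in the order Hist2h3c1, Hist2h3c2, Hist1h3d and Hist2h2be. Hist2h3c1 and Hist2h3c2 encode the same kind of histone H3 and may share reads.

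Non-T barcodes were given a type by their most abundant marker list. Among those outside the cycling class, the summed level of the members was 866 ± 192 CPM (SD) in mast cell-like barcodes (5 libraries, 136 barcodes), 574 ± 186 in B cell-like, 422 in plasma cell-like, 293 in fibroblast-like and 234 ± 46.4 in macrophage or monocyte-like barcodes (8 libraries each). Dendritic cell-like barcodes had 432, endothelial-like 227 and barcodes that took no type 585 (8 libraries each). Epithelial-like barcodes had 362 (4 libraries) and neutrophil-like 289 (3 libraries). Hist1h2bc was highest in mast cell-like (241 CPM), plasma cell-like (132) and fibroblast-like (114) barcodes and low in B cell-like barcodes (25.2). Hist1h1e had another order, with 156 in B cell-like, 99.3 in mast cell-like, 53.7 in plasma cell-like, 21.8 in macrophage or monocyte-like and 21.6 in fibroblast-like barcodes. Cycling B cell-like barcodes reached 5762 CPM over the members, the mean of the 3 libraries with at least 20 such barcodes, which held 96. Cycling plasma cell-like barcodes had 2699 ± 733 (SD, 7 libraries). The 735 cycling macrophage or monocyte-like barcodes had only 504 ± 283 (SD, 8 libraries), from 141 to 913.

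After DSS, the summed level of histone mRNA was lower in both classes of T cells, but few single members passed the test within 1 genotype. The summed level in cycling T cells was 4109 ± 385 CPM in untreated wildtype, 4370 ± 767 in untreated mutant, 3037 ± 392 in DSS-treated wildtype and 3089 ± 321 in DSS-treated mutant mice (SD, n = 2). All 4 DSS libraries lay below all 4 untreated libraries. Other T cells had means of 632, 593, 407 and 396, again without overlap. Cycling non-T barcodes had 1994, 2557, 1062 and 1501 without overlap, while other non-T barcodes had 348, 404, 305 and 283, and there the libraries overlapped.

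In wildtype cycling T cells, 2 of 40 tested members were lower after DSS (2.19% of all genes tested were lower), and none was higher (1.07%). At an unadjusted p under 0.05 there were 19 members, against 20% of all genes tested. With no filter on low counts 10 of 62 members were called, all lower (3.77% of all genes in either direction), and with cells thinned to 1000 UMIs none of 17. Hist2h2bb had 78.7 and 70.4 CPM in untreated and 36.6 and 48.2 in DSS-treated wildtype libraries, a log2 difference of -0.89 ± 0.18 (edgeR adjusted p = 0.0164). Hist2h2ac had 202.9 and 189 untreated and 135.5 and 118 after DSS, a difference of -0.67 ± 0.14 (adjusted p = 0.0209). For both genes the 2 DSS libraries lay below the 2 untreated libraries. The call of Hist2h2bb was lost without untreated replicate 1 (adjusted p = 0.11), untreated replicate 2 (0.0648) or DSS replicate 1 (0.132). That of Hist2h2ac was lost without untreated replicate 1 (0.125), untreated replicate 2 (0.108) or DSS replicate 2 (0.168).

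In mutant cycling T cells, 2 other members were lower after DSS (2.33% of all genes tested), and 20 of 40 had an unadjusted p under 0.05 (19.3% of all genes tested). With no filter on low counts 9 of 62 were called (3.96% of all genes), and with thinned cells none of 17. Hist1h1c had 285 and 319 CPM untreated and 231 and 175 after DSS, a log2 difference of -0.64 ± 0.15 (edgeR adjusted p = 0.0317). Hist1h2be had 39.1 and 43.4 untreated and 22.7 and 21.8 after DSS, a difference of -0.94 ± 0.24 (adjusted p = 0.0426). Neither gene's DSS libraries overlapped the untreated ones. Hist2h2ac differed by -0.02 in the mutant (adjusted p = 0.972). That the genotypes differed in any member was not shown: the interaction of DSS and genotype called no member and no gene, and 3 of 40 members had an unadjusted p under 0.05 (5.81% of all genes tested). Without mutant untreated replicate 2, the adjusted p was 0.269 for Hist1h1c and 0.247 for Hist1h2be, and without mutant DSS replicate 2 it was 0.255 and 0.229. Leaving out mutant untreated replicate 1 gave 0.0882 and 0.137. The call of Hist1h1c was also lost without wildtype untreated replicate 1 (0.0596) or 2 (0.0603), and that of Hist1h2be without mutant DSS replicate 1 (0.052).

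In other T cells, no member was called after DSS in wildtype mice (0.0562% of all genes tested were lower), where 20 of 32 had an unadjusted p under 0.05 (18% of all genes tested) and DESeq2 called 2. With no filter on low counts, 15 of 61 members were called lower in wildtype mice (4.01% of all genes in either direction) and 13 in mutant mice (8.44%), and with thinned cells none of 30 in either. In mutant mice 3 were lower (2.89% of all genes tested) and none was higher (3.01%), with 18 of 32 at an unadjusted p under 0.05 (27.2% of all genes tested). Hist2h2ac had 25.2 and 22.1 CPM untreated and 13.5 and 12.5 after DSS (log2 difference -0.94 ± 0.17, edgeR adjusted p = 0.0191). Hist3h2ba had 20.5 and 16.6 against 8.53 and 10.1 (-1.05 ± 0.20, adjusted p = 0.0224), and Hist1h2be had 14.0 and 14.9 against 8.71 and 7.13 (-0.96 ± 0.20, adjusted p = 0.0283). The DSS libraries lay below the untreated ones for all 3 genes. In wildtype mice the same genes had 25.9 and 23.7 against 13.1 and 17.0 (Hist2h2ac), 16.9 and 18.3 against 10.9 and 8.68 (Hist3h2ba), and 15.4 and 14.0 against 11.2 and 9.82 (Hist1h2be). All 3 mutant calls were lost without mutant untreated replicate 1, mutant untreated replicate 2 or mutant DSS replicate 2, with adjusted p of 0.11, 0.0863 and 0.0913 for Hist2h2ac, 0.133, 0.0855 and 0.0679 for Hist3h2ba, and 0.11, 0.153 and 0.128 for Hist1h2be. In all non-T barcodes no member was called in either genotype (0.12% and 1.1% of all genes tested were lower, and 0.482% and 2.43% higher), with 11 and 16 of 45 members at an unadjusted p under 0.05 (17% and 26.2% of all genes tested) and 1 and 2 called by DESeq2. With no filter on low counts 1 and 3 were called, and with thinned cells 0 and 2. These counts and those by DESeq2 stand without the share of all genes called in the same fits.

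Each member's DSS difference was next set side by side in both genotypes, which share no library. The estimate was below 0 in both for 32 of 40 members in cycling T cells, 29 of 32 in other T cells and 35 of 45 in non-T barcodes. Over all genes tested, 33.5%, 37.2% and 39.3% were below 0 in both.

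**Figure D4:**
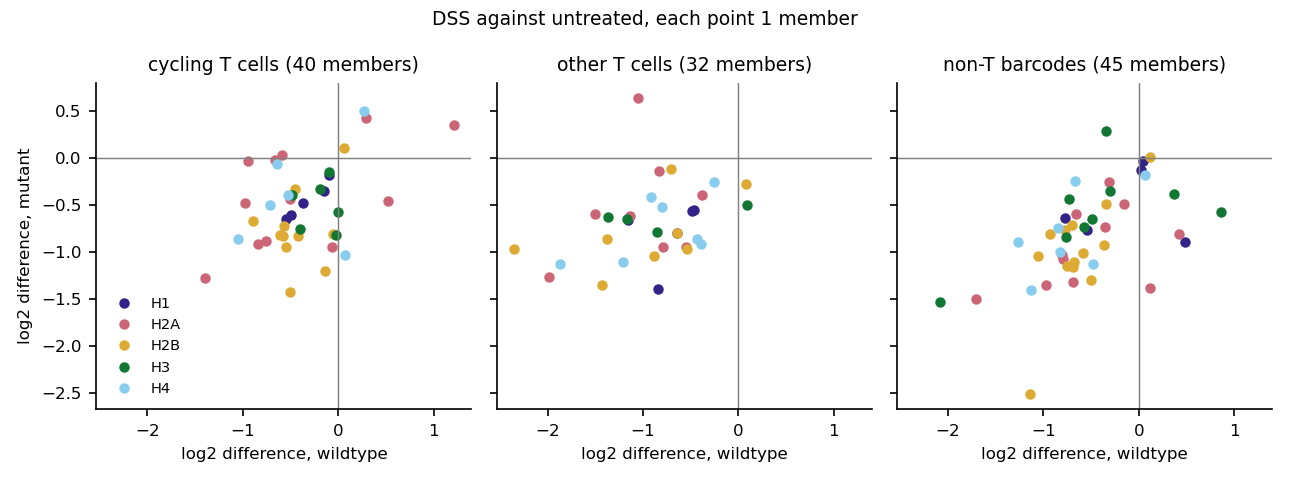
Log2 difference between DSS-treated and untreated libraries in wildtype (horizontal) and mutant mice (vertical), with 1 point per tested member coloured by family, in cycling T cells, other T cells and all non-T barcodes. In the lower left of each panel, where both genotypes are below 0, lie 32 of 40, 29 of 32 and 35 of 45 members.

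A contrast of DSS averaged over both genotypes, chosen after seeing the data, called more members. In cycling T cells 17 of 40 were lower (8.21% of all genes tested), in other T cells 19 of 32 (9.16%) and in non-T barcodes 8 of 45 (7.08%), and none was higher (5.73%, 9.26% and 9.06%). The median log2 difference of the tested members was -0.47, -0.75 and -0.71, and those of all genes lay within 0.01 of 0. The called members of cycling T cells included Hist2h2bb (-0.78 ± 0.13, edgeR adjusted p = 0.00151), Hist1h1c (-0.60, 0.00273), Hist1h2ae (-0.88, 0.011), Hist1h1b (-0.42, 0.0208) and Hist1h2ap (-1.33 ± 0.42, 0.0471). Untreated and DSS libraries overlapped there for Hist1h2ae, Hist1h1b and Hist1h2ap. Hist1h2ap, for instance, had 118 CPM in untreated wildtype replicate 1 and 323 in DSS-treated mutant replicate 1. The called members of other T cells included Hist2h2ac (-0.87, 0.00349), Hist3h2ba (-0.97, 0.00392), Hist1h1c (-0.72, 0.0117), Hist1h1b (-0.91, 0.0118) and Hist1h1e (-0.53, 0.0142), and the libraries overlapped for Hist1h1c and Hist1h1b. The counts depended on single libraries. In cycling T cells the count was 3 without untreated mutant replicate 2, 5 without untreated wildtype replicate 2, 8 without replicate 2 of either DSS group and 11 without untreated wildtype replicate 1. In other T cells it was 5 without untreated wildtype replicate 2, 8 without untreated mutant replicate 2 or DSS wildtype replicate 2 and 10 without DSS mutant replicate 2. In non-T barcodes it was 1 without either untreated wildtype library or replicate 2 of either DSS group, and 3 without untreated mutant replicate 2 or DSS wildtype replicate 1. DESeq2 called 5, 11 and 9. These alternative counts stand without shares of all genes and show only how far the count moved.

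The 8 members of the non-T contrast were Hist2h2ac, Hist2h4, Hist2h2bb, Hist1h2bj, Hist1h4h, Hist1h4d, Hist1h2ab and Hist1h4a. Hist1h4d had 42.6, 35.3, 41.9 and 35.2 CPM in the untreated and 19.5, 23.1, 20.4 and 23.4 in the DSS libraries, without overlap (-0.79 ± 0.11, edgeR adjusted p = 0.00844). Hist2h2ac had 11.7, 13.2, 12.2 and 18.4 untreated and 7.00, 6.97, 7.21 and 7.20 after DSS. Hist2h4 had 2.37, 2.52, 4.36 and 3.04 against 1.12, 1.53, 2.10 and 1.40. For both genes every DSS library lay below every untreated one. Among the H2B genes, Hist2h2bb had 4.97, 4.15, 4.95 and 6.03 against 2.38, 3.13, 2.48 and 2.42, and Hist1h2bj had 4.62, 6.73, 5.31 and 8.89 against 3.08, 2.37, 3.61 and 3.08. The H2A gene Hist1h2ab had 3.75, 7.07, 5.63 and 10.5 against 3.22, 2.30, 3.01 and 3.16. These 3 genes did not overlap between the groups either. The H4 gene Hist1h4a had 1.39, 2.08, 2.36 and 2.40 against 0.981, 0.627, 0.827 and 0.881, without overlap. Hist1h4h had 7.22, 11.6, 10.9 and 15.7 against 5.18, 2.79, 7.51 and 6.39, and its groups overlapped.

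The cell types among the non-T barcodes also differed between untreated and DSS libraries. Fibroblast-like barcodes were 27.5%, 33.4%, 37.4% and 21.6% of the non-T barcodes in the untreated and 10.6%, 21.1%, 13.8% and 21.7% in the DSS libraries. Neutrophil-like barcodes were 0.115%, 0.231%, 0.186% and 0.244% against 0.787%, 0.747%, 1.27% and 1.19%, without overlap. The neutrophil marker list summed to 33.2, 62.6, 26.9 and 48.4 CPM in untreated and 894, 1161, 1149 and 2135 in DSS-treated other non-T barcodes, also without overlap. B cell-like barcodes were 6.14%, 8.88%, 10.8% and 31.5% against 9.02%, 6.45%, 14.7% and 5.54%, and macrophage or monocyte-like barcodes 36.3%, 29.2%, 26.6% and 15.98% against 40.8%, 32.9%, 28.6% and 36.5%, with overlap in both. The part of this mix in the lower member levels of the non-T barcodes was not tested. By type of barcode, B cell-like barcodes outside the cycling class had a summed member level of 741, 684, 807 and 735 untreated and 477, 345, 420 and 385 after DSS, without overlap. Macrophage or monocyte-like barcodes had 238.2, 253, 315 and 255 against 221, 196, 237.6 and 156, also without overlap, though 238.2 and 237.6 nearly met. Barcodes that took no type had 582, 687, 696 and 832 against 545, 440, 433 and 466, without overlap. Dendritic cell-like and endothelial-like barcodes overlapped. In plasma cell-like (443, 530, 399 and 503 against 467, 318, 389 and 323) and fibroblast-like barcodes (317, 298, 360 and 322 against 352, 202.6, 306 and 188) the libraries overlapped.

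All 4 DSS libraries lay below all 4 untreated libraries for 8 of 40 members in cycling T cells (7.76% of all genes tested), 16 of 32 in other T cells (8.44%) and 16 of 45 in non-T barcodes (13.1%). The 8 of cycling T cells were Hist2h2bb, Hist3h2ba, Hist1h2bm, Hist1h2ak, Hist1h4d, Hist1h1c, Hist1h2ab and Hist1h4a. Hist1h4d, for instance, had 361, 300.4, 304 and 277 CPM untreated and 227, 248, 188 and 267 after DSS. Hist1h2ag was the only tested member with all DSS libraries above (11.3% of all genes tested).

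Other measures moved with DSS beside the histone genes, and their part in the result was not tested. In cycling T cells the S phase list had group means of 1945 and 2103 CPM untreated and 2459 and 2306 after DSS. In the averaged contrast 5 of its 25 genes were higher and none was lower, beside 5.73% and 8.21% of all genes tested. The share of cycling T cells past the S phase limit was 56.6%, 57.9%, 58.9% and 45.4% untreated and 67.6%, 62.9%, 57.9% and 66.04% after DSS. Of 9 replication-independent histone genes tested, 3 were lower and 2 higher, with H3f3b at -0.63 (edgeR adjusted p = 0.00283). None of 12 chaperone or 10 processing genes was lower, and 2 and 1 were higher. Heat shock genes were lower for 4 of 6, and their summed level was 1721, 4636, 1429 and 1436 CPM in the order of the groups, high in the untreated mutant. The share of cycling T cells that also held at least 2 UMIs of another cell type's list was 60.9%, 53.6%, 59.4% and 63.2% untreated and 72.3%, 71.6%, 79.7% and 67.1% after DSS, and in other T cells 44.3%, 33.4%, 39.5% and 43.9% against 44.0%, 57.5%, 64.8% and 39.4%.

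Within classes of T cells the lower level after DSS was seen in each. In the order untreated wildtype, untreated mutant, DSS wildtype and DSS mutant, cells past both limits had group means of 4765, 5816, 3510 and 3842 CPM over the members. Cells past only the limit on Mki67, Top2a and Birc5 had 2543, 1734, 1443 and 1106, cells past only the S phase limit 724, 623, 426 and 464, and cells past neither 625, 591, 406 and 391. These are descriptions with 2 libraries a group and no test.

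The mutant was compared with the wildtype in each treatment. No member was called in cycling T cells, other T cells or non-T barcodes, in untreated or DSS-treated mice, by edgeR or DESeq2, and no gene at all was called by edgeR (0% of all genes tested). The interaction of DSS and genotype called none in other T cells or non-T barcodes either, with 0 and 2 members at an unadjusted p under 0.05 (4.03% and 2.07% of all genes tested). For mutant against wildtype, members at an unadjusted p under 0.05 numbered 3, 0 and 2 members in untreated mice and 4, 4 and 0 in DSS-treated mice, in the order cycling T cells, other T cells and non-T barcodes. The shares of all genes tested were 6.16%, 5.06% and 4.79% untreated and 3.57%, 2.18% and 1.37% after DSS. With no filter on low counts, 2 members were called in untreated and 1 in DSS-treated cycling T cells, and 1 in DSS-treated other T cells. The share of all genes called in those fits is not given, so these counts are no result about the members. With 2 libraries a group, the lack of calls in the main fits does not show that the genotypes have the same histone mRNA.

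Among the 12 members with the highest levels in cycling T cells, Hist1h2ap spread most between libraries. Between its lowest and highest library its level differed 13.4-fold in cycling T cells, 11.7-fold in other T cells and 36.5-fold in other non-T barcodes. In the last it was 2.12, 16.7, 6.03, 26.1, 4.92, 0.713, 6.93 and 3.06 CPM. DSS-treated wildtype replicate 2 was lowest in all 3 populations, and untreated mutant replicate 2 was highest in cycling T cells and in other non-T barcodes. Hist1h2ae (4.43-fold, 3.46-fold and 5.45-fold) and Hist1h2ab (3.14-fold, 4.25-fold and 8.66-fold) also spread, whereas the H2A gene Hist2h2ac did so less (1.72-fold, 2.07-fold and 3.64-fold). Some members with lower levels spread as well, such as the H2B gene Hist1h2bn, with 6.19 to 30.3 CPM in cycling T cells. In cycling T cells, Hist1h3c (1.43-fold), Hist1h1d (1.44-fold) and Hist1h1e (1.57-fold) were much alike in all libraries. Within the untreated wildtype group alone, the 2 libraries had 118 and 650.5 CPM of Hist1h2ap in cycling T cells.

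**Figure D5:**
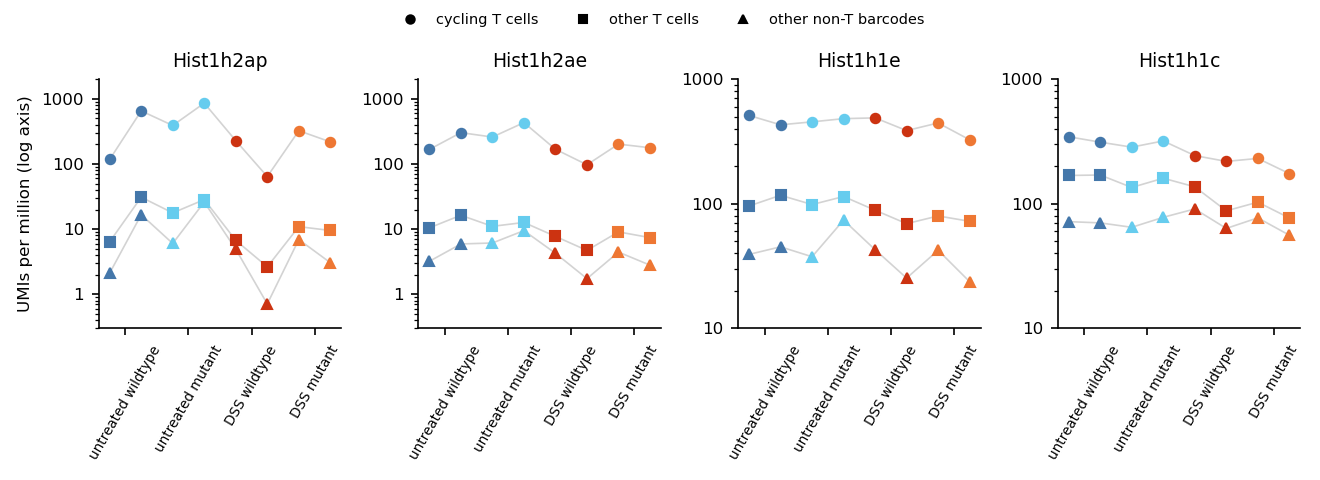
Levels of Hist1h2ap, Hist1h2ae, Hist1h1e and Hist1h1c (CPM, log axes that differ between the H2A and H1 panels) in the 8 libraries, 2 per group, in cycling T cells (circles), other T cells (squares) and other non-T barcodes (triangles). Hist1h2ap runs from 64.0 to 856 in cycling T cells, whereas Hist1h1e runs from 326 to 511.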

How the data were processed

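The authors deposited UMI counts per gene and barcode for 8 libraries, a cell list and a gene list. The submitters' processing notes name Cell Ranger 3.1.0, Seurat 4.0.1 and mm10. The annotation used for counting is not given in the sources used here. Counts were used as deposited. Barcodes with at least 400 genes and under 20% mitochondrial UMIs were kept. Doublets were not called, and markers of other cell types in T cells are given instead. Counts were summed per library and class and tested with edgeR 4.0.16 (R 4.3.3; TMM, filterByExpr, quasi-likelihood test), with Benjamini-Hochberg adjustment over all genes and calls at adjusted p under 0.05. DESeq2 1.42.0 was an alternative. Contrasts between classes had the library as a term, and contrasts between groups used all 8 libraries in 1 fit. The fits were checked on simulated data. Levels are UMIs per 1000000 UMIs of the class (CPM). Stem-loops and untranslated regions came from GENCODE vM21, promoters from RefSeq. Values per library, or the lowest, median and highest of the 8 libraries, are given for the 12 members with the highest mean level in cycling T cells and for every member called where 10 or fewer were called. Of related lists, counts and the 3 most abundant genes are given. The members and lists were chosen with earlier results of these data known.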

Additional observations from a re-analysis of the deposited data

How the results depend on the processing

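All counts here are members called. They stand without the share of all genes called in the same fit, so they show only how far a count moved. With the library (replicate block) in the fit, 37 were called in cycling against other T cells, and 37 without it; no replicate block moved a count between classes by over 1.5 times. The groups were compared unpaired, because they share no animal number in the labels and no label states a pairing. Wildtype and mutant numbers lie close together within a treatment, but no label says what this marks, and a paired fit was not tried. Leaving out each library gave 37 to 39 (cycling T cells), 27 to 36 (cycling non-T), 27 to 36 (non-T against T cells), 3 to 4 (S phase limit only against neither) and 21 to 25 (against the cycling genes only). For DSS it gave 0 to 4 and 0 to 3 in cycling T cells of wildtype and mutant and 0 to 2 and 0 to 5 in other T cells. It gave 0 in non-T barcodes, and 0 in every genotype and interaction contrast. The averaged DSS contrast, chosen after seeing the data, gave 3 to 14, 5 to 17 and 1 to 9.

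With no filter on low counts, the counts were 51 in cycling non-T barcodes (29 with it) and 5 for the S phase limit only against neither (3). For DSS they were 10 and 9 in cycling T cells of wildtype and mutant (2 and 2), 15 and 13 in other T cells (0 and 3) and 1 and 3 in non-T barcodes (0 and 0). For mutant against wildtype they were 2 (untreated, cycling T), 1 (DSS, cycling T) and 1 (DSS, other T), against 0. Cells thinned to 1000 UMIs gave 9 in cycling non-T, 20 in non-T against T cells (32), 6 for S phase only against neither and 3 against cycling genes only (23). For DSS, thinning gave 0 and 0 in cycling T cells, 0 in mutant other T cells and 2 in mutant non-T barcodes. T cells on the list or not gave 8 for S phase only against neither, 4 in mutant cycling T cells and 2 and 7 in other T cells of wildtype and mutant. DESeq2 gave 1 in mutant cycling T cells, 2 in wildtype other T cells, 1 and 2 in non-T barcodes, and 5 and 11 for the averaged contrast in cycling and other T cells (17 and 19). A limit of 1 UMI for cycling cells gave 1 in mutant cycling T cells. Fits on only the 4 libraries compared gave 6 and 4 in cycling T cells and 1 in wildtype other T cells. The averaged contrast gave 17, 19 and 8.

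Hist1h2bc in cycling against other non-T barcodes, not called, ran from log2 -0.157 to 0.0893 when single libraries were left out, and was 0.0390 with non-T barcodes under 2 T cell UMIs and 0.0744 at 3 UMIs for cycling. For single members, 385 of 435 alternatives kept direction and call, 45 lost the call and 5 changed sign, and the cause was not tested. Depth limits the members under 60 UMIs in a class.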
